A study of Homo sapiens with 6 samples.

Results

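The genes described here are 44 genes of RNA sensing and the interferon response, read from 58735 genes in a deposited count table by matching the gene name to a written list. Of the 44, 16 detect foreign RNA or pass the signal on (4 sensors, 4 adaptors and kinases, 6 transcription factors and 2 receptor chains) and 28 are interferon-stimulated genes, the targets of the pathway. The list groups genes by known role, and a gene among the 16 can itself be an interferon target, as IRF1 is. It was drawn up with earlier results of these libraries known. They were measured by RNA sequencing in HuCCT1 (HUCCT1 in the labels), an established human bile duct cancer (cholangiocarcinoma) cell line. The comparison has 3 libraries of cells treated with an siRNA (a short RNA that silences a gene) targeting C1QBP (labelled siC1QBP) and 3 of cells given the control siRNA (labelled siNC). The series title places C1QBP in a feedback loop with PAICS, FAK and c-Myc in proliferation. The labels give no dose, time after transfection or number of separate cultures. Cells of both groups received a short double-stranded RNA, and none of the 6 libraries is labelled as untransfected.

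Cells recognise foreign RNA in the cytosol with the helicases RIG-I (gene DDX58) and MDA5 (IFIH1) and in endosomes with TLR3. The helicases signal through MAVS on the outer mitochondrial membrane and TLR3 through TICAM1, the kinases TBK1 and IKBKE then activate IRF3 and IRF7, and these switch on interferon genes. Secreted type I interferon binds the receptor chains IFNAR1 and IFNAR2, and a complex that includes STAT2 and IRF9 then raises the interferon-stimulated genes through a short element in their promoters. C1QBP sits chiefly inside mitochondria and has been reported to bind MAVS and to restrain this pathway. The comparison gives RNA levels in siRNA-treated cells, and the sample titles name no other treatment. Whether C1QBP restrains a response to foreign RNA was not tested.

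Few of these genes changed after C1QBP was lowered, some up and some down, each by less than 1 unit on the log2 scale. IFIH1 fell to 68.9% of its control level, ISG15 to 78.0%, BST2 to 85.8% and IRF3 to 86.5%, while DDX60 rose to 128% and IFNAR1 to 116%. These 6 passed an adjusted p of 0.05 in edgeR's quasi-likelihood test over all 15530 genes with enough counts. Of the 44, 43 had enough counts to be tested, so 6 of 43 (14.0%) were called, against 14.3% of all tested genes. The called share of these genes was thus close to that of the whole table. In each direction, 2 of 43 rose against 6.47% of all tested genes, and 4 of 43 fell against 7.84%. The untested gene was the ubiquitin-like ligase HERC5, with 4, 8 and 1 reads in siC1QBP replicates 1, 2 and 3 and 3, 3 and 4 in siNC.

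The siRNA target itself stood at 59.1, 57.6 and 60.0 CPM (a gene's reads scaled to a library of 1e+06 reads, with edgeR's TMM library factors) in siC1QBP replicates 1 to 3 and at 175, 181 and 185 CPM in siNC. The groups lay far apart (exact permutation test, two-sided, p = 0.1, which is the minimum for 3 against 3), and the fitted level was 32.7% of control. Total counts ranged from 17122252 to 20416243 per library. The level of 3 counts, which a library with no read of a gene would still allow, was 0.149 to 0.173 CPM and covers counting error only. No label ties the replicates to separate cultures; the p-values therefore speak only of sample-to-sample spread, possibly of technical origin. Among the siC1QBP libraries the first differed most (its count chi-square over degrees of freedom was 6.66 and 6.77 to the other 2, which had 2.09 to each other), and members whose call changes without it are also given without it. In bulk RNA, a lower level in every cell and a lower level in part of the cells cannot be told apart. Of 8 markers of biliary epithelium, all 8 were tested and summed to 7764 to 8137 CPM in siC1QBP and 8575 to 9067 CPM in siNC; KRT7 and KRT19 fell, and the other 6 were not called. The part of that difference in the results below was not tested. Markers of leukocytes summed to 6.35 to 7.17 and 6.42 to 7.44 CPM over 7 genes, nearly all of it CD14, with CD3E and CLEC4C at 0 in all 6 libraries. Markers of fibroblasts, 5 genes mostly from LUM, summed to 9.34 to 12.6 and 8.22 to 10.5 CPM; those of endothelium, 4 genes, to 3.05 to 3.95 and 2.52 to 3.70 CPM; and those of hepatocytes, 5 genes, stayed at or under 0.278 CPM, with TTR at 0.

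The promoters of the called genes are shown because genes that rose and genes that fell carry the same element. The motif searched was GAAANNGAAA, the core of the interferon-stimulated response element, on both strands (TTTCNNTTTC on the other), in the 300 bases from 250 before to 50 after each RefSeq start (GRCh38.p14). Of the 44 genes, 34 had an entry; DHX58, IRF2, IRF3, IRF7, IFNAR2, IFIT2, IFITM2, OAS2, OASL and USP18 had none. The motif was in 19 of 23 interferon-stimulated genes and in 2 of 11 sensing and signalling genes (IFIH1 and TLR3), against 4.38% of 27305 genes with an entry. Capitals mark the motif and each sequence runs 5′ to 3′ along the gene's strand. A match is a stretch of letters, not evidence of binding.

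IFIH1 promoter (chr2:162318635-162318934, minus strand): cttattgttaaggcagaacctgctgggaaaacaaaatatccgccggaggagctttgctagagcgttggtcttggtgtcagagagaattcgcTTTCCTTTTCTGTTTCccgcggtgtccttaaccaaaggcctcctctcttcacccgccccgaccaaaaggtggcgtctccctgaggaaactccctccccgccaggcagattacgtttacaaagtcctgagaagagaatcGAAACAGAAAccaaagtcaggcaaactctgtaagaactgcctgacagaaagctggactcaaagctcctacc
ISG15 promoter (chr1:1013247-1013546, plus strand): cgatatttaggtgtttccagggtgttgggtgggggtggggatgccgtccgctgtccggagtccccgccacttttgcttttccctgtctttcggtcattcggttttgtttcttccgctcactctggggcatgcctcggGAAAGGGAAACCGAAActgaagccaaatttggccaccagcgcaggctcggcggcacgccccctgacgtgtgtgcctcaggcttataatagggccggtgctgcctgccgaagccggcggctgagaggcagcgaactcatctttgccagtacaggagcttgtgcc
BST2 promoter (chr19:17405581-17405880, minus strand): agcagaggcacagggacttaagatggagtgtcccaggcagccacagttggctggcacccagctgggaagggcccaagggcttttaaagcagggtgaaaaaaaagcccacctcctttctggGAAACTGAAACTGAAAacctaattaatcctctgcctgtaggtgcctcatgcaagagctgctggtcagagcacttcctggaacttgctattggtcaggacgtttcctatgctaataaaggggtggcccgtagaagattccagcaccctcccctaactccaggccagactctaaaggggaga
DDX60 promoter (chr4:168318703-168319002, minus strand): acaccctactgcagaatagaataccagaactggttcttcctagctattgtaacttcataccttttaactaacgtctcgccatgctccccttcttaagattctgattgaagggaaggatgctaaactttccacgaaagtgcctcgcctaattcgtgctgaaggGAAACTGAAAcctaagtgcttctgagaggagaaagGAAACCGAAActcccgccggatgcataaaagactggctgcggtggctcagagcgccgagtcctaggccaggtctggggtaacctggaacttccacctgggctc

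Matches began 159, 153 and 21 bases before the start in IFIH1, 113 and 107 in ISG15, 130 and 124 in BST2, and 88 and 53 in DDX60. The pairs 6 bases apart in the first 3 genes overlap. IFIH1, ISG15 and BST2 fell and DDX60 rose, so the element was shared by called genes of both directions. The fifth called gene with an entry, IFNAR1, had no match in either of its 2 windows. Over the 20 tested genes with the motif the median log2 fold change was -0.09, with 15 below 0 and 5 above, and over the 13 without it the median was 0.0078. Most genes with the motif were interferon-stimulated and most without it were sensing or signalling genes, so this split nearly repeats that by role. The interferon-stimulated genes with an entry but no match were OAS1 (-0.28), HERC6 (-0.17), TRIM25 (-0.13) and IFI35 (-0.01), all below 0 as well. Whether the medians with and without the motif differ was not tested.

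**Figure D1:**
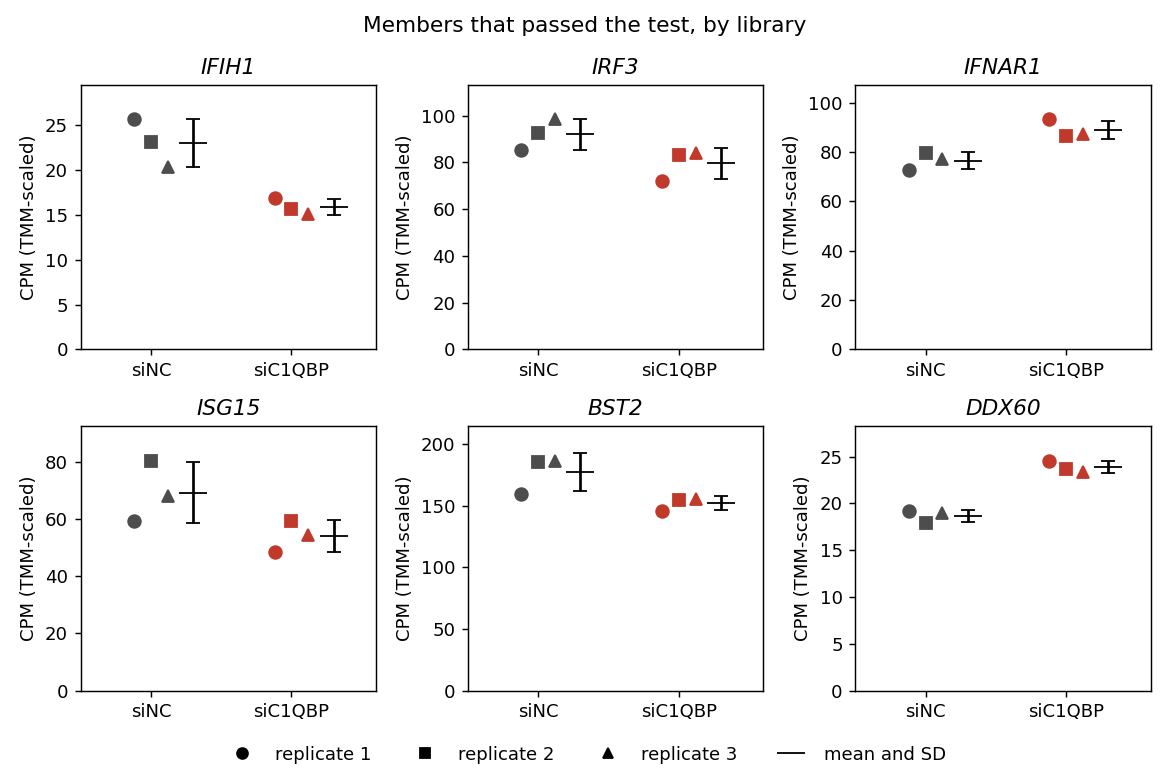
Level of each of the 6 called genes in every library (y axis, CPM on TMM-scaled library sizes, starting at 0) for siNC (grey) and siC1QBP (red); symbols give the replicate number and bars the mean and SD of 3 libraries. The groups do not overlap in any of the 6 panels, and ISG15 comes closest, with its highest siC1QBP library at 59.3 and its lowest siNC library at 59.4 CPM.

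Among the sensors, IFIH1 was the only one called. IFIH1 (ENSG00000115267; hg38 chromosome 2, 162267079 to 162318703, minus strand) encodes MDA5, which binds long double-stranded RNA. It stood at 16.8, 15.7 and 15.1 CPM in siC1QBP replicates 1 to 3 and at 25.6, 23.2 and 20.3 CPM in siNC. All 3 siC1QBP libraries lay below all 3 siNC libraries, and the siNC libraries spread more (SD 2.66 against 0.899). The log2 fold change was -0.54 (SE 0.10; 95% interval -0.74 to -0.34; edgeR adjusted p = 0.00145). It was the largest fall among the 43 tested genes, and the call held with each library left out, at -0.62 to -0.46. DDX58, which encodes RIG-I, the sensor of short RNA with a 5′ triphosphate, had 45.6, 44.9 and 42.2 CPM in siC1QBP and 43.9, 42.4 and 47.3 CPM in siNC. Its groups overlapped, and the interval of its log2 fold change ran from -0.15 to 0.13 (edgeR adjusted p = 0.944).

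The other 2 sensors did not pass. DHX58 encodes LGP2, a regulator of both helicases that lacks their signalling domains. It lay at 9.004, 10.3 and 9.29 CPM in siC1QBP and 8.51, 8.19 and 8.55 CPM in siNC, slightly higher with no overlap, but did not pass (log2 fold change 0.18, SE 0.12; edgeR adjusted p = 0.331). TLR3, the endosomal receptor of double-stranded RNA, was at 10.3 to 11.8 and 10.4 to 12.6 CPM (-0.09, SE 0.11; edgeR adjusted p = 0.646). Per length, DDX58 was the highest of the sensors, at 10.2 ± 0.579 RPKM (CPM divided by gene length in kilobases; SD, n = 3) in siNC, above IFIH1 at 4.51 ± 0.521, DHX58 at 2.19 ± 0.0518 and TLR3 at 1.73 ± 0.164.

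None of the 4 adaptors and kinases was called, and all 4 fold changes were between 0.0078 and 0.09. MAVS, the mitochondrial adaptor that C1QBP is reported to bind, had 224, 211 and 209 CPM in siC1QBP and 212, 210 and 206 CPM in siNC. Its interval was narrow, from -0.06 to 0.13 on the log2 scale (edgeR adjusted p = 0.632). TICAM1, the adaptor of TLR3, lay at 50.3, 49.4 and 45.5 CPM in siC1QBP and 46.3, 51.8 and 46.2 CPM in siNC, with an interval of -0.13 to 0.15. TBK1, the main kinase of IRF3, was at 44.9, 45.5 and 46.6 CPM against 42.1, 42.7 and 43.6 CPM, a small difference without overlap that did not pass (0.09, SE 0.06; edgeR adjusted p = 0.321). IKBKE, the related kinase, was the highest of the sensing and signalling genes per length, at 48.0 ± 0.799 RPKM in siC1QBP and 45.4 ± 3.11 in siNC. Its libraries had 180, 186 and 181 CPM against 159, 181 and 176 CPM, overlapping, and it did not pass (0.08, SE 0.05; edgeR adjusted p = 0.315). An antisense gene that shares 156 of its exonic bases, C1orf147, was at 4.06, 4.79 and 2.63 CPM in siC1QBP and 1.59, 2.78 and 1.253 CPM in siNC (log2 fold change 1.01; edgeR adjusted p = 0.0259). That gene was singled out after its values were seen, its call was lost without siC1QBP replicate 2 or siNC replicate 1 or 3, and its part in the IKBKE value was not tested.

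Of the 6 transcription factors, IRF3 was called lower, by a small margin. IRF3 (ENSG00000126456; chromosome 19, 49659569 to 49665875, minus strand) is present in resting cells and is activated by phosphorylation. It was at 72.0, 83.0 and 83.9 CPM in siC1QBP and 85.2, 92.6 and 98.4 CPM in siNC. The highest siC1QBP and lowest siNC libraries were almost level, and siC1QBP replicate 1 was the lowest of all 6. On the log2 scale it fell by 0.21 (SE 0.07; edgeR adjusted p = 0.0425). IRF3 no longer passed when siC1QBP replicate 1 (-0.14; edgeR adjusted p = 0.0857), siNC replicate 2 (0.136) or siNC replicate 3 (0.213) was left out. It was also lost with upper quartile scaling (0.0703), library size only (0.0831) or a filter of at least 10 CPM (0.0752; edgeR adjusted p throughout). On the opposite strand BCL2L12 shares 734 of the 3794 annotated exonic bases of IRF3. BCL2L12 was at 37.1, 43.3 and 43.9 CPM in siC1QBP and 53.3, 60.4 and 60.0 CPM in siNC (log2 fold change -0.48, SE 0.07; edgeR adjusted p = 0.000382). The strand setting of the counting is not given in the sources used here, so reads of the shared stretch cannot be assigned to either gene with certainty. BCL2L12 was singled out after its values were seen, and its part in the IRF3 value was not tested.

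STAT2, a subunit of the interferon-activated complex, just missed the threshold in the other direction. Its libraries had 49.97, 60.7 and 53.9 CPM in siC1QBP and 49.6, 46.9 and 46.8 CPM in siNC. The groups did not overlap, although siC1QBP replicate 1 lay next to siNC replicate 1 (log2 fold change 0.20, SE 0.07; edgeR adjusted p = 0.0668). Without siC1QBP replicate 1 it passed (0.26; edgeR adjusted p = 0.00580), as it did with upper quartile scaling (0.0386), library size only (0.0491) and the filter of at least 10 CPM (0.0485). IRF1, itself a target of interferon gamma, was at 50.1, 52.9 and 50.9 against 56.0, 59.1 and 54.4 CPM, lower in all 3 siC1QBP libraries (-0.14, SE 0.06; edgeR adjusted p = 0.119). IRF7, which amplifies the interferon response, overlapped at 24.0, 23.1 and 21.4 against 23.4, 26.2 and 27.1 CPM (-0.16; edgeR adjusted p = 0.202), and IRF2, an antagonist of IRF1, at 26.1 to 28.8 and 23.3 to 28.3 CPM (0.09; edgeR adjusted p = 0.509). Per length IRF3 led this group, at 24.3 ± 1.74 RPKM in siNC, followed by IRF7 at 9.72 ± 0.733 and IRF2 at 8.33 ± 0.802, whose libraries overlapped.

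IRF9, the DNA-binding subunit of the same complex, was far lower in the table than its partners. It had 21, 15 and 23 reads in siC1QBP and 12, 8 and 20 in siNC, or 0.285 ± 0.0493 and 0.188 ± 0.0921 RPKM, and its fold change was not resolved (0.61, 95% interval -0.22 to 1.44). A readthrough gene on the same strand, AL136295.5, shares 1838 of the 3794 exonic bases of IRF9 and held 8 to 13 reads per library. The receptor chain IFNAR2 was in the same position, with 15, 23 and 26 reads in siC1QBP and 35, 26 and 24 in siNC (log2 fold change -0.35, 95% interval -1.02 to 0.32). It shares 2038 of 4614 exonic bases with AP000295.1, which held 0 reads in every library, and 1803 with the antisense gene IL10RB-DT, at 4 to 14 reads. The levels of IRF9 and IFNAR2 are therefore uncertain, since reads in shared exons may have been given to another gene or to none; how the counting treated them is not given in the sources used here.

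IFNAR1, the other chain of the type I interferon receptor, rose. IFNAR1 (ENSG00000142166; chromosome 21, 33324477 to 33359862, plus strand) was at 93.1, 86.6 and 87.3 CPM in siC1QBP and 72.8, 79.4 and 77.1 CPM in siNC. Every siC1QBP library lay above every siNC library by at least the width of the siC1QBP group. The log2 fold change was 0.22 (SE 0.05; 95% interval 0.10 to 0.33; edgeR adjusted p = 0.0121). The call held with each library left out, at 0.18 to 0.25.

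**Figure D2:**
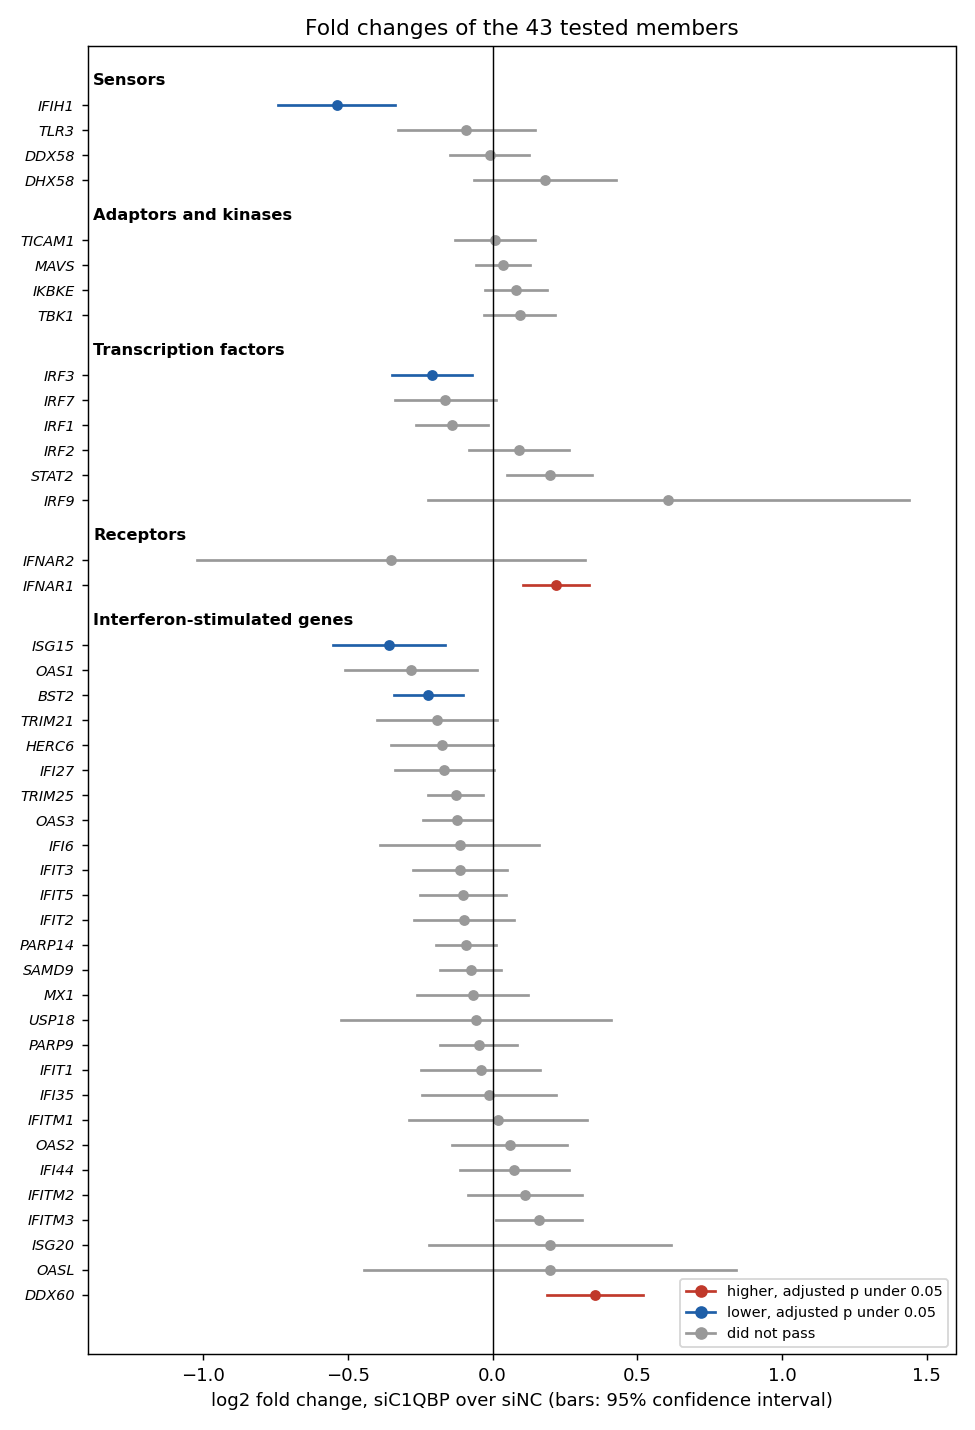
Log2 fold change of siC1QBP over siNC (x axis) with its 95% confidence interval for the 43 tested genes, in blocks by role and sorted within each block; red and blue mark genes called higher and lower, grey those that did not pass. Most intervals cross 0, IFIH1 at -0.54 lies lowest, and IRF9 and IFNAR2 have the widest intervals.

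Of the 27 tested interferon-stimulated genes, 2 fell, 1 rose and 24 did not pass (11.1% called, against 14.3% of all tested genes). ISG15 (ENSG00000187608; chromosome 1, 1001138 to 1014540, plus strand) encodes a small ubiquitin-like protein that is attached to other proteins during the response. It was at 48.3, 59.3 and 54.5 CPM in siC1QBP and 59.4, 80.4 and 67.9 CPM in siNC. The groups barely separated, with replicate 1 the lowest library in each (log2 fold change -0.36, SE 0.09; edgeR adjusted p = 0.0146). ISG15 no longer passed when siNC replicate 2 was left out (-0.24; edgeR adjusted p = 0.118), and with any other single library left out the fold change was -0.46 to -0.29. BST2 (ENSG00000130303; chromosome 19, 17402939 to 17405648, minus strand) encodes tetherin, a membrane protein that holds budding virus on the cell. It was at 146, 155 and 156 CPM in siC1QBP and 160.0, 186 and 187 CPM in siNC, again without overlap (-0.22, SE 0.06; edgeR adjusted p = 0.0150). BST2 no longer passed when siNC replicate 2 (-0.19; edgeR adjusted p = 0.103) or siNC replicate 3 (-0.18; 0.104) was left out. In siNC, BST2 and ISG15 were also the highest of the 44 genes per length, at 159 ± 13.6 and 73.6 ± 11.2 RPKM. In siC1QBP, BST2 stood at 136 ± 4.90, and IFITM3 at 60.7 ± 6.94 and ISG15 at 57.4 ± 5.87 did not differ beyond their spread.

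DDX60, a helicase-like protein linked to RIG-I signalling, was the only one of these 27 interferon-stimulated genes called higher. DDX60 (ENSG00000137628; chromosome 4, 168216293 to 168318807, minus strand) was at 24.6, 23.7 and 23.4 CPM in siC1QBP and 19.2, 17.9 and 18.95 CPM in siNC. Both groups were tight (SD 0.627 and 0.668) and lay well apart. The log2 fold change was 0.35 (SE 0.08; 95% interval 0.19 to 0.52; edgeR adjusted p = 0.00589), and the call held with each library left out, at 0.32 to 0.37.

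Below these, 4 interferon-stimulated genes had an unadjusted edgeR p under 0.05 without passing. TRIM25, the ubiquitin ligase that modifies RIG-I, was at 239, 221 and 220 CPM in siC1QBP and 248, 250.5 and 243 CPM in siNC, without overlap (-0.13, SE 0.04; edgeR adjusted p = 0.0686). TRIM25 passed without siC1QBP replicate 1 (-0.17, edgeR adjusted p = 0.00236) and when all genes of at least 1 count were tested (edgeR adjusted p = 0.0437). It also passed with each library's trend with gene length removed (0.00447), with replicate number as a second term (0.0234) and with both (0.00156). OAS1, a synthetase activated by double-stranded RNA, had 11.2, 13.8 and 12.02 against 15.3, 13.6 and 16.1 CPM, where siC1QBP replicate 2 and siNC replicate 2 overlapped (-0.28, SE 0.11; edgeR adjusted p = 0.0915). Its relative OAS3 was at 90.3, 86.8 and 92.5 against 104, 97.9 and 91.4 CPM, also overlapping (-0.12, SE 0.06; edgeR adjusted p = 0.153). IFITM3, a membrane protein that blocks virus entry, went the other way, at 71.1, 86.5 and 87.9 CPM in siC1QBP and 73.0, 70.5 and 76.5 CPM in siNC (0.16, SE 0.07; edgeR adjusted p = 0.144). Here siC1QBP replicates 2 and 3 were above all siNC libraries and replicate 1 was among them, and without replicate 1 IFITM3 passed (0.25; edgeR adjusted p = 0.00159). In all, 12 of 43 members had an unadjusted p under 0.05, against 29.0% of all tested genes.

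Apart from ISG15, the genes most used as readouts of an interferon response did not pass. IFIT1, IFIT2, IFIT3 and IFIT5, which bind foreign RNA, had log2 fold changes of -0.04, -0.10, -0.11 and -0.10, with IFIT1 at 14.8 to 15.98 CPM in siC1QBP and 14.8 to 17.7 CPM in siNC. MX1, a GTPase that traps viral capsids, was at 16.7 to 20.1 and 19.2 to 20.7 CPM, with an interval of -0.26 to 0.12. OAS2 lay at 0.06 and OASL at 0.20, the latter on only 18 to 32 reads per library. IFI27 was at 96.4, 131 and 124 CPM in siC1QBP and 126, 130 and 138 CPM in siNC, where siC1QBP replicate 1 alone was low (-0.17, edgeR adjusted p = 0.186). Without that library its fold change was -0.05. IFI27 passed when all genes of at least 1 count were tested (edgeR adjusted p = 0.0140). It also passed with replicate number as a second term, without (0.0279) and with (0.0163) the length trend removed. IFI6, IFI35 and IFI44 overlapped between groups at -0.11, -0.01 and 0.08. USP18, the enzyme that removes ISG15 from proteins and dampens the receptor, was faint at 2.05 to 2.501 and 2.25 to 2.48 CPM (-0.06, 95% interval -0.52 to 0.41), and reads may be split with its near-copy USP41.

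HERC6, a relative of the ISG15 ligase HERC5, was at 18.2, 16.8 and 17.2 CPM in siC1QBP and 19.4, 20.1 and 19.3 CPM in siNC, lower in all 3 without passing (-0.17, SE 0.08; edgeR adjusted p = 0.178). TRIM21, a ligase that binds antibody-coated virus, had -0.19 (edgeR adjusted p = 0.209), and the ADP-ribosyltransferase genes PARP9 and PARP14 had -0.05 and -0.09. SAMD9, which restricts poxviruses, was at -0.08, and the nuclease ISG20 at 0.20 with overlapping groups. Without siC1QBP replicate 1, SAMD9 passed (-0.13; edgeR adjusted p = 0.0353). IFITM1 and IFITM2 were at 0.02 and 0.11. They share 351 exonic bases on the same strand and are related in sequence to IFITM3, so their counts may be split and their separate values are uncertain.

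**Figure D3:**
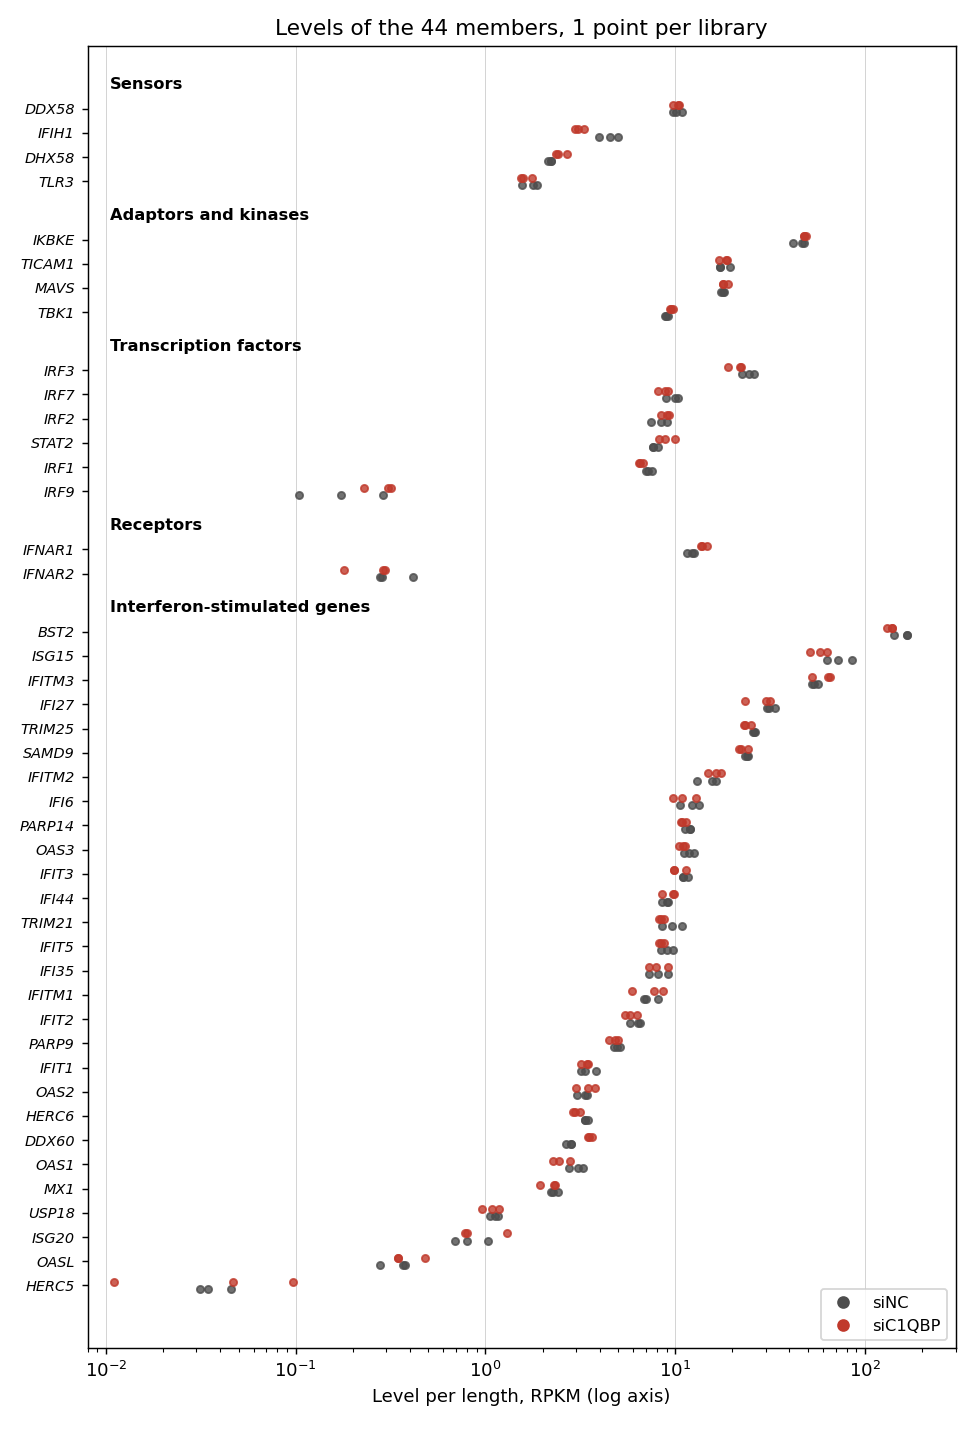
Level per length of all 44 genes (x axis, RPKM, log axis) with 1 point per library, siNC in grey and siC1QBP in red, in blocks by role. BST2, ISG15 and IFITM3 lie highest among the interferon-stimulated genes and HERC5 lowest, while the shift between groups is small beside the range over genes.

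Most members were higher or lower by little. Of the 43, 37 had a log2 fold change of less than 0.25 in size (86.0%, against 73.2% of all tested genes), and 26 were below 0 and 17 above. Their median was -0.06, against 0.0026 for all tested genes. Split by role, the median was 0.02 over the 16 sensing and signalling genes, where 3 were called (18.8%, against 14.3% of all tested genes). It was -0.08 over the 27 interferon-stimulated genes, where 19 were below 0 and 3 were called (11.1%). Whether the 2 groups of genes differ was not tested. Groups of libraries that did not overlap occurred in 5 of 43 genes with siC1QBP higher (DHX58, TBK1, STAT2, IFNAR1 and DDX60) against 16% of all tested genes, and in 7 with siC1QBP lower (IFIH1, IRF1, IRF3, ISG15, BST2, HERC6 and TRIM25) against 16.6%. The lower share of 16.3% was level with the whole table, and neither count is a result about these genes.

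**Figure D4:**
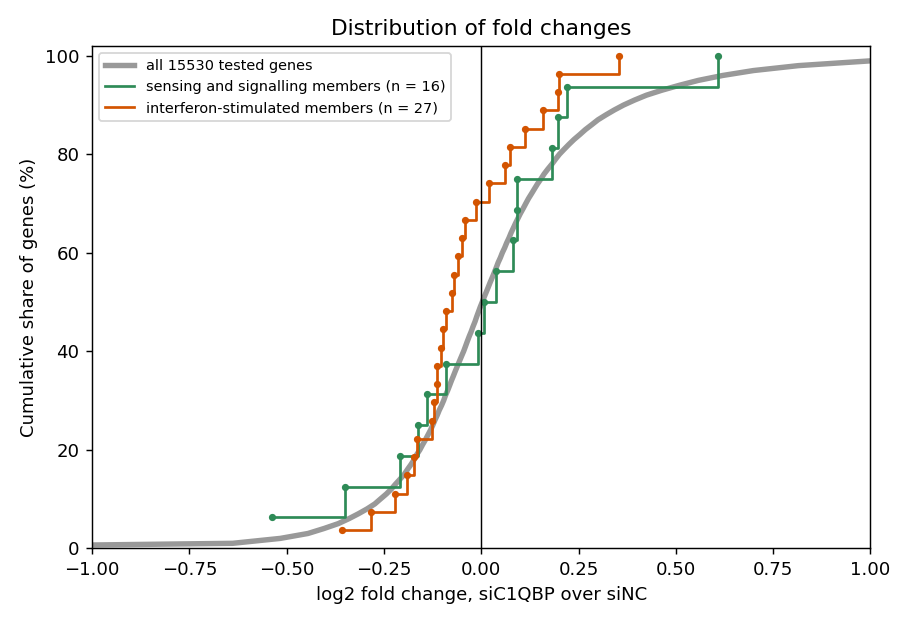
Cumulative share of genes (y axis, percent) by log2 fold change of siC1QBP over siNC (x axis) for all tested genes (grey), the 16 sensing and signalling genes (green) and the 27 tested interferon-stimulated genes (orange). The orange curve is higher than the grey one at 0, where 19 of 27 genes lie below, and the green curve follows the grey one near 0.

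Summed over the 28 interferon-stimulated genes, the level was 1321 to 1348 CPM in siC1QBP and 1405 to 1450 CPM in siNC. The difference of the means was -98.4 CPM, of which BST2, TRIM25, ISG15 and IFI27 together made -75.6 CPM. The sum thus followed a few abundant genes and was not a like change of all 28. The share of reads from mitochondrially encoded genes also separated the groups, at 4.20% to 4.799% in siC1QBP and 3.66% to 3.88% in siNC, as did the number of genes with a read, at 25001 to 25506 and 23395 to 23841. Their part in this difference was not tested.

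The libraries did not weigh equally. For the 8 tested genes with a gene length under 2000 bases in the table, siC1QBP replicate 1 was below the mean of replicates 2 and 3 in 7, TRIM21 excepted, and for the 35 longer ones in 14. Across the 43 genes the difference between replicate 1 and the mean of replicates 2 and 3 had a Spearman correlation of 0.33 with gene length, and 0.24 across all tested genes; genes share the same libraries and are not independent. The genes lowest in replicate 1 relative to the others were IFNAR2, IFITM1, IFI27, ISG20 and IFITM3, of which IFNAR2, IFI27 and ISG20 are not among the short ones. Without siC1QBP replicate 1, 9 of the 43 genes were called, 4 higher and 5 lower, and 5 of the original 6 were kept. Without siNC replicate 2 only 3 were called (IFIH1, IFNAR1 and DDX60), and without siNC replicate 3 there were 4 (those and ISG15). With each library's trend with gene length removed, 10 were called, 2 higher and 8 lower. The genes gained were IRF1 (edgeR adjusted p = 0.0251), OAS3 (0.0237), PARP14 (0.0184) and TRIM25 (0.00447), all lower. The count over all 15530 tested genes, 2222 with all libraries, moved as well. It was 2607 without siC1QBP replicate 1, 1090 without siNC replicate 2 and 1193 without siNC replicate 3. With the length trend removed it was 2666, of which 771 were higher and 1895 lower.

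**Figure D5:**
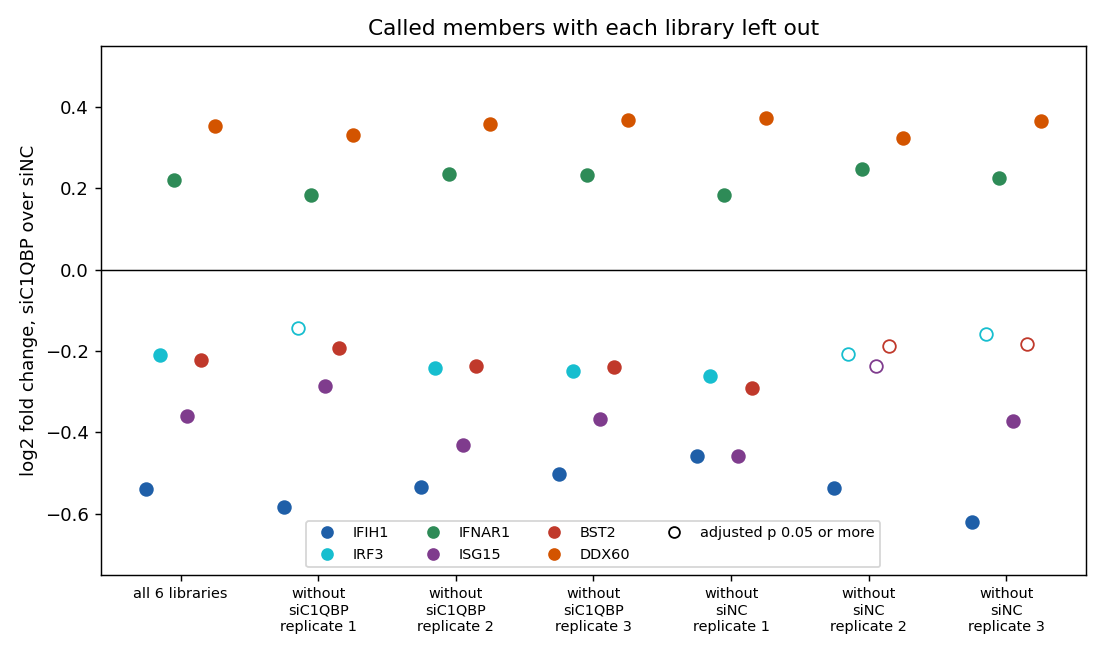
Log2 fold change (y axis) of the 6 called genes with all 6 libraries and with each library left out in turn (x axis); filled points passed an adjusted p of 0.05 and open points did not. IFIH1, IFNAR1 and DDX60 stay filled throughout, IRF3 is open in 3 of the 6 reduced fits, BST2 in 2 and ISG15 in 1.

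Genes of the same pathway outside the 44 were taken from a list of 84 grouped by known role. Of these, 64 had enough counts, and 5 rose, 7 fell and 52 did not pass, so 18.8% were called, against 14.3% of all tested genes. Interferon genes themselves were nearly silent: 5 of 10 (IFNA2, IFNW1, IFNG, IFNL2 and IFNL3) had no read in any library. IFNB1, the first interferon made after RNA sensing, had 0, 1 and 1 reads in siC1QBP and 1, 0 and 0 in siNC. IFNA1 had 4, 4 and 1 against 0, 0 and 1, IFNK 2, 2 and 1 against 1, 0 and 0, and IFNL1 1, 0 and 1 against 2, 0 and 0. These genes had too few reads to be tested. IFNE, an interferon of reproductive epithelium that is not a standard product of RNA sensing, was the exception, at 5.72, 6.40 and 8.19 CPM in siC1QBP and 4.34, 4.52 and 4.85 CPM in siNC. It rose (log2 fold change 0.57, SE 0.16; edgeR adjusted p = 0.0265), but lost its call without siC1QBP replicate 3 (0.41; edgeR adjusted p = 0.154) or any 1 of the siNC replicates.

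Among other sensing genes 1 of 19 tested rose and 2 fell (15.8% called, against 14.3% of all tested genes). TRAF3, which links MAVS and TICAM1 to TBK1, was at 141, 131 and 142 CPM in siC1QBP and 119, 118 and 117 CPM in siNC (0.22, SE 0.05; edgeR adjusted p = 0.00418). DHX15, an RNA helicase of splicing that has been linked to MAVS, fell from 277 ± 7.05 to 236 ± 8.43 CPM (SD, n = 3; -0.24, SE 0.04; edgeR adjusted p = 0.00188). For TRAF3 and DHX15 the groups did not overlap, and both calls held with each library left out.

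None of 10 tested genes of interferon signalling was called. Of 34 other interferon-stimulated genes tested, 3 rose and 5 fell (23.5% called, against 14.3% of all tested genes). Whether these shares differ was not tested. GBP2 and GBP1, guanylate-binding proteins known as interferon gamma targets, rose by 0.37 (SE 0.07) and 0.19 (SE 0.06), and LAMP3 by 0.45 (SE 0.12). PARP10 (-0.29), SAMD9L (-0.25), PARP12 (-0.20), DTX3L (-0.19), which pairs with PARP9, and the immunoproteasome subunit PSMB9 (-0.30) fell. Of these 8, GBP2 alone kept its call with each library left out (edgeR adjusted p up to 0.0166). LAMP3 lost it without siC1QBP replicate 3 or siNC replicate 3, PARP10 without siNC replicate 2 or 3, and PSMB9 without siC1QBP replicate 1 or siNC replicate 2 or 3. SAMD9L kept it only when siC1QBP replicate 1 or siNC replicate 2 was the library left out, GBP1 only when it was siC1QBP replicate 2, and DTX3L only when it was siC1QBP replicate 1. PARP12 lost it whichever library was left out. The number of calls in the list of 84 was 12 with all libraries and 3 to 10 with 1 left out.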

How the data were processed

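Per the labels' protocols, total RNA of 6 samples was made into strand-marking libraries. The table the authors deposited holds unnormalized counts for 58735 genes. The build is hg38 per the submitters' processing notes; for read alignment and counting, no program or strand option is named. Identifiers and coordinates of 58735 genes matched GENCODE release 29. Per the file headers, gene lengths come with the deposited counts and gave the RPKM.

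Counts were tested with edgeR 4.0.16 (R 4.3.3; quasi-likelihood, TMM scaling, filterByExpr, treatment as the only term, Benjamini-Hochberg over 15530 genes), and the procedure was tested on simulated data. Genes called have an adjusted p under 0.05. SE is the fold change over the root of the F statistic, and 95% intervals use its t distribution. Named are all members, called genes of the 84 pathway genes and interferon genes with a read, of which some are not reported here. The members and lists were chosen with earlier results of these data known. Alternatives used DESeq2 1.42.0, limma 3.58.1, other scalings and filters, a length correction by splines with 5 degrees of freedom, a replicate block, a threshold of 0.01 and each library left out. Python 3.11.15, pandas 2.3.3 and scipy 1.17.1 made the tables.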

Additional observations from a re-analysis of the deposited data

How the results depend on the processing

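Over 43 tested members and up to 18 alternatives each, no called value changed sign; 9 recomputed values lost a call, 24 gained one and 734 kept their side. IFIH1, IFNAR1 and DDX60 kept their call under each of these, and IFIH1 and DDX60 also at the stricter threshold of 0.01. Of the 37 members not called, 28 were called under none. Against 6 calls, there were 2 at an adjusted p under 0.01, 10 with the length trend removed and 3 to 9 with 1 library left out. The count of all genes, 2222 in the main fit, was 1057 at 0.01, 2666 with the length trend removed and 1090 to 2607 with 1 library left out. Sensing and signalling genes had 1 call at 0.01 and 2 to 3 with 1 library left out. Interferon-stimulated genes had 5 calls with all genes of at least 1 count, 6 with the length trend removed, 1 at 0.01 and 1 to 6 with 1 library left out. Pathway genes outside the members had 7 calls with a mean of at least 10 CPM, 3 at 0.01 and 3 to 10 with 1 library left out. With the length trend removed the median fold change was -0.11 (all genes -0.03), and -0.07 to -0.05 with 1 library left out. The split of all calls was 1005 higher and 1217 lower, but 1253 and 908 with library size only, 1280 and 946 with upper quartile scaling and 771 and 1895 with the length trend removed. The cause was not tested. Same-numbered libraries deviated together only weakly (correlations 0.04, 0.03 and -0.0094 for replicates 1, 2 and 3). The first 2 of these were higher than any correlation between unlike numbers, but siC1QBP replicate 3 correlated more with siNC replicate 2 (0.02). These values do not settle whether equal numbers pair libraries. With the replicate block 3092 genes, 9 members and 5 interferon-stimulated members passed. With the block and the length trend removed 3235 genes, 14 members, 10 interferon-stimulated members and 19 pathway genes outside them passed. The members gained there were IRF1, IFI27, IFITM3, OAS1, OAS3, SAMD9, PARP14 and TRIM25, of which IFITM3 alone was higher. The members' median was then -0.11. The C1QBP level was 32.2% to 33.1% of control with 1 library left out. Faint genes (IRF9, IFNAR2, OASL, HERC5) are limited by few reads, and the counts of IRF9 and IFNAR2 are also uncertain because they share exons with other genes.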
